A study of Mus musculus with 12 samples.

Results

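The wild type kidney of the mouse at E18.5 was described from the 3 libraries labelled wild type at that age, out of 12 libraries in the series. They carry the numbers 30, 37 and 55 and were chosen by their labels alone. RNA was taken from whole kidneys of mouse embryos on a mixed background, which the study's methods give as 129/CD1, with no targeted allele and no treatment. The other 9 libraries come from kidneys with mutations of the Hoxa and Hoxc genes, the subject of the study, and they were not compared here. The labels do not say whether the 3 libraries came from separate embryos, or whether kidneys were pooled. All 3 share a sequencing run. Values of the 3 libraries are given in the order 30, 37 and 55.

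Late in gestation the kidney holds nephrons of every age. Progenitors of the cap mesenchyme lie at the outer edge around the branching tips of the ureteric bud, while the oldest nephrons, deeper in the organ, already carry podocytes, proximal tubule, loop of Henle and distal tubule that drain into collecting ducts. Stroma, vessels and a dense matrix surround them. A whole kidney library sums all of these cells, so fewer cells of a type and less RNA per cell cannot be told apart.

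The libraries held 37190058, 42353534 and 39304131 counts on genes. Levels within a gene are given in CPM, counts scaled to a common library size, and at this depth 3 counts, taken as the floor, correspond to 0.0812, 0.0709 and 0.0758 CPM. At 1 CPM or more there were 14137, 14127 and 14147 genes. In all 3 libraries together 13813 genes reached 1 CPM, which is 38.2% of the 36186 entries. The mean of the libraries was at least 1 CPM for 14157 genes, which are called detected below and at least 100 CPM for 2447. The 10 most abundant genes took 3.61%, 3.69% and 4.01% of the counts, and the 100 most abundant took 14.1%, 15.3% and 15.3%. To compare levels between genes, the scaled counts were divided by exon length and multiplied by the same constant in all libraries, and are given as TPM. The median detected gene stood at 23.8 TPM.

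Library 30 stood apart from the other libraries. The squared difference of scaled counts, divided by its expectation under counting error alone, had a median over genes of 6.75 between libraries 30 and 37 and of 8.21 between libraries 30 and 55. Between libraries 37 and 55 it was 2.63, against 0.455 for counting error alone, so that no library was a second copy of another. Each library was the highest of the 3 in a share of the 14157 detected genes, 38.6% for library 30, 27.9% for library 37 and 33.5% for library 55. The lowest value lay in library 30 for 42.9% of these genes, in library 37 for 23.9% and in library 55 for 33.2%. These shares are the background for every count of genes by library given below. Some results that rest on library 30 are also given without it. They include those of the proximal tubule, cap mesenchyme, distal tubule and Hox lists, some list medians and the spread over all genes. Transcripts of the Y chromosome were present in all 3 libraries. Ddx3y, which encodes an RNA helicase, had 95.5, 87.0 and 92.6 CPM, and Xist, the RNA that silences an X chromosome in female cells, had 0.0812, 0.142 and 0.0506 CPM.

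The most abundant transcripts by CPM included several of protein synthesis and folding. Eef1a1, the elongation factor that brings aminoacyl tRNA to the ribosome, had the highest CPM of all genes, at 9993, 10934 and 10223. Eef2, which moves the ribosome along the messenger, had 3269, 3178 and 3096 CPM, and the chaperone Hsp90ab1 had 3005, 3037 and 2878 CPM. These 3 genes differed little between libraries, with ratios of the highest to the lowest library of 1.09, 1.06 and 1.06. The imprinted long noncoding RNA H19 had 2695, 2889 and 2780 CPM and ranked 7. Col4a1, a chain of basement membrane collagen, ranked 10. Other genes among the first 20 by CPM were Lars2, Esp38, Tpt1, Ptma, Rplp0, Nedd4, Atp5b, Rpsa, Hspa8, Rpl4, Atp5a1, Gnas, Rpl3 and Actb.

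Esp38 and Lars2 ranked 3 and 2 by CPM. Esp38, named for an exocrine gland secreted peptide, had 2907, 2366 and 5946 CPM, and with an exon length of 375 bases it was the highest of all genes by TPM, at 26552, 21608 and 54305. It was highest in library 55 and was the only gene among the first 20 by CPM with a ratio of at least 2 between its highest and its lowest library. Lars2, the leucyl tRNA synthetase of mitochondria, had 3451, 3701 and 4172 CPM and 1066, 1143 and 1289 TPM. Whether the reads of these genes come from their own transcripts was not tested. By TPM the genes next to Esp38 were Eef1a1, Ptma and Rplp1, and 12 of the first 20 encode ribosomal proteins.

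Of 85 ribosomal protein genes with an Rpl or Rps symbol and a number, which leaves out Rplp0, Rplp1 and Rpsa, 78 were detected. The median over all 85 was 1322 TPM, the highest of all the lists examined. Their summed level was 105091, 129874 and 129346 TPM. The sum was lowest in library 30, and 77 of the 78 genes were lowest there. The exception was Rpl36al, lowest in library 37. The highest by TPM was Rps3a1, with 4457, 5360 and 5372. Reads at more than 1 position had been removed, so levels of genes with near-identical copies, such as these and Eef1a1, are uncertain.

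The 17 housekeeping genes, in common use as references, were all detected and had a median of 515 TPM. They spanned from Eef1a1 at a mean of 14264 TPM to Tbp, the TATA binding protein, at 7.54 TPM. Gapdh, of glycolysis, had 1140, 1290 and 1185 TPM, and Actb, cytoplasmic actin, had 1942, 2417 and 1997 TPM. The narrowest of the list was Gusb, a lysosomal glucuronidase, with 41.4, 41.1 and 40.3 TPM and a ratio of 1.03. The median ratio of the list was 1.15, equal to the median of 1.15 over all genes with a mean of at least 10 CPM.

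Among kidney cell types and structures, the list of basement membrane genes had the highest median level, 174 TPM, followed by the proximal tubule at 137 TPM and proliferation at 122 TPM. Interstitial matrix stood at 90.3 TPM, collecting duct at 70.4, stroma at 68.0, endothelium at 63.3 and loop of Henle at 53.0. Early nephron, podocyte, mural cell, cap mesenchyme, distal and connecting tubule, and ureteric bud tip lay between 45.6 and 32.0 TPM. Intercalated cells stood at 26.4, urothelium at 14.2 and Hox genes at 12.8 TPM. Every gene of the nephron, ureteric, stromal and vessel lists was detected, against 14157 of all 36186 entries. The lists were chosen with earlier results of these data known, so this is no independent check of the tissue. Each median is taken over all genes of a list, detected or not. A list median depends on which genes were listed, and it does not give the share of a cell type. Without library 30 the proximal tubule stood at 93.3 TPM, below proliferation at 125 TPM, and basement membrane at 176 TPM. The order of several lists also changed when the length of the longest transcript was used. Stroma, at 74.1 TPM, and endothelium, at 73.8, then stood above collecting duct at 63.4. Podocyte, at 51.9, stood above loop of Henle at 43.2.

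**Figure D1:**
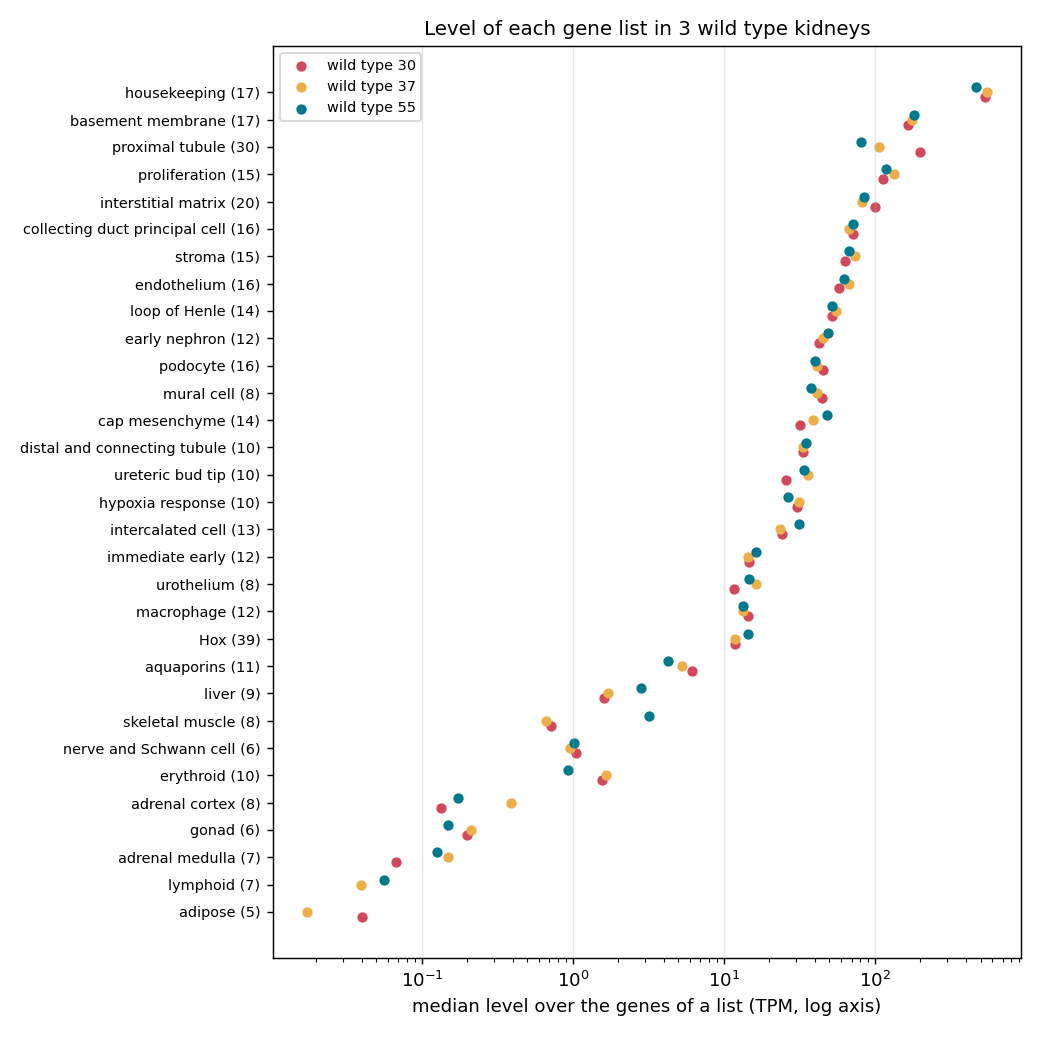
Median level over the genes of each list in TPM on a log axis, by library, with the number of genes listed and found in parentheses. The proximal tubule list lies at 198, 106 and 80.8 TPM, and medians of 0 are not drawn.

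Nephron progenitor genes were present at moderate levels. All 14 genes of the cap mesenchyme list were detected. Six2, the transcription factor that keeps progenitors undifferentiated, was the highest on average, with 111, 139 and 173 TPM. In library 30 Sall1, a zinc finger factor, was higher, with 124, 125 and 145 TPM. Cited1, a transcriptional coactivator of the least committed progenitors, had 71.6, 98.2 and 93.8 TPM, and Gdnf, the ligand that draws the ureteric bud, had 28.3, 33.6 and 37.9 TPM. Library 30 was the lowest in 13 of the 14 genes, against 42.9% of all detected genes. Dpf3, the lowest of the list by TPM, was the exception and was highest in library 30. The summed level was 695, 834 and 917 TPM, and the median ratio of the highest to the lowest library was 1.39. Tmem100, a membrane protein, was the widest, with 35.2, 42.3 and 56.1 TPM. Without library 30, library 37 was above library 55 in 5 of the 14 genes, against 51.8% of the 14132 genes compared in this way.

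The 12 genes of early nephrons had a median of 45.6 TPM, all of them detected. Jag1, a Notch ligand, led with 101, 95.3 and 113 TPM. Wnt4, the signal that turns progenitors into epithelium, had 75.6, 85.8 and 103 TPM, and Lhx1, a transcription factor of the renal vesicle, had 38.2, 39.8 and 44.1 TPM. Library 55 was the highest in 9 of the 12 genes and library 30 the lowest in 9. Cdh6, a cadherin also present in the forming proximal tubule, went the other way, with 63.2, 38.4 and 33.8 CPM. Of the ureteric bud tip, Spry1, an inhibitor of receptor tyrosine kinase signalling, had 114, 125 and 131 TPM and Ret, the receptor for Gdnf, had 18.9, 20.2 and 21.2 TPM. Library 30 was the lowest in 7 of the 10 tip genes.

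Genes of the cell cycle were abundant. Pcna, the sliding clamp of DNA replication, had 268, 333 and 337 TPM, and Top2a, the topoisomerase of dividing cells, had 144, 151 and 151 TPM. All 15 proliferation genes exceeded 10 CPM. Library 30 was the lowest in 14 of the 15, but the differences were small, with a median ratio of 1.17 and a summed level of 1652, 1909 and 1880 TPM.

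Podocyte genes showed no shared order of the libraries. Cdkn1c, an imprinted cell cycle inhibitor that is not confined to podocytes, was the highest of the 16, at 967, 1365 and 1308 TPM. Podxl, the sialomucin of the podocyte surface, had 372, 376 and 366 TPM. Nphs1, which encodes nephrin of the slit diaphragm, had 34.3, 36.4 and 29.7 TPM. Podxl and Nphs1 differed between libraries by ratios of 1.03 and 1.23. Library 37 was the highest in 8 of the 16 genes, library 55 in 5 and library 30 in 3. Col4a4, a chain of the mature glomerular basement membrane, was the widest, with 71.8, 44.7 and 48.1 CPM.

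Of the lists of kidney cells, the proximal tubule had the widest median ratio between libraries, at 2.55. All 30 of its genes were detected, 27 of them at 10 CPM or more, and all 30 were highest in library 30, against 38.6% of all detected genes. Lrp2, the endocytic receptor megalin, had 1083, 542 and 434 CPM. Slc34a1, the phosphate carrier of the brush border, had 776, 377 and 272 CPM, and Fbp1, an enzyme of gluconeogenesis, had 357, 142 and 101 CPM. In each of these genes library 30 was the highest, library 37 lay below it and library 55 was the lowest. Slc5a2, the low affinity glucose carrier, was the widest of the list, with 32.6, 6.90 and 5.06 CPM and a ratio of 6.44. Hnf4a, a transcription factor of the segment, had 295, 150.4 and 133 CPM.

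**Figure D2:**
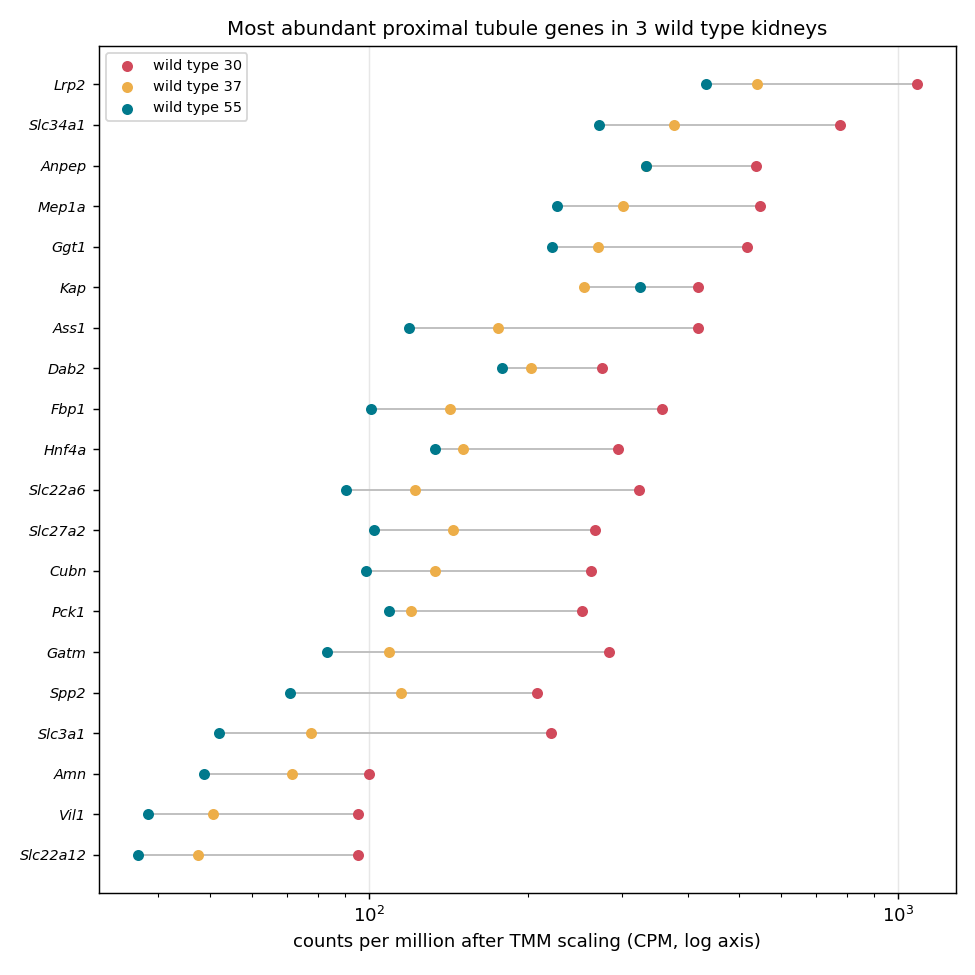
CPM on a log axis in each library of the 20 proximal tubule genes with the highest mean CPM, with a line from the lowest to the highest library. Library 30 is the highest in all of them, from Lrp2 at 1083 CPM to Slc22a12 at 95.5 CPM.

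Library 30 held at least 2 times the lowest library in 24 of the 30 genes, 22 of them at 10 CPM or more. Over all genes with a mean of at least 10 CPM, a ratio of at least 2 between any libraries occurred in 230 of 10759, or 2.14%. The summed level of the list was 9072, 4712 and 4226 TPM. The median ratio of library 30 to library 37 was 1.99 and to library 55 it was 2.55. Library 55 was the lowest in 28 genes, and library 37 in the other 2, Kap and Anpep. Without library 30, library 37 was above library 55 in 28 of the 30 genes, against 51.8% of all genes compared in this way, with a median ratio of 1.32. By level, Kap, the androgen regulated protein of the kidney, was the highest of the list, with 2030, 1234 and 1574 TPM. The secreted protein Spp2 followed, with 719.8, 398 and 244 TPM, then Fbp1 and Mep1a, the brush border protease meprin. Slc6a19, a neutral amino acid carrier, was the lowest detected, with 4.18, 1.99 and 1.71 TPM.

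Promoters of 28 of the 30 genes were found in the RefSeq table, as 300 bases that span each start site in build GRCm38.p6. The letters GTTAAT, searched on both strands, occurred in 9 of the 28, or 32.1%, against 8.24% of all 27025 genes with a promoter and 5.78% of the 11151 of these that were detected. They also occurred in 5 of the 8 liver genes with a promoter, so they were not particular to this list. Other lists with them included podocyte, in 2 of 8, loop of Henle, in 2 of 10, and interstitial matrix, in 2 of 12. Several lists, among them cap mesenchyme and proliferation, had none. The letters CAAAGTCC, searched on both strands, occurred in 3 of the 28, or 10.7%, against 1.63% of all genes with a promoter. They were not particular to this list, and occurred in 2 of 12 proliferation genes, or 16.7%, and in 1 of 9 early nephron genes, or 11.1%. Both motifs were chosen after the values were seen, and a match is a description of the sequence only. Promoters of 4 of the 9 genes with GTTAAT are shown to give the place of the motif, and were chosen by it. They are those of Slc34a1 at chr13:55399398-55399697, Slc3a1 at chr17:85028097-85028396, Slc22a6 at chr19:8617746-8618045 and Miox at chr15:89334223-89334522, all on the plus strand, with both motifs in capitals in either orientation.
Slc34a1: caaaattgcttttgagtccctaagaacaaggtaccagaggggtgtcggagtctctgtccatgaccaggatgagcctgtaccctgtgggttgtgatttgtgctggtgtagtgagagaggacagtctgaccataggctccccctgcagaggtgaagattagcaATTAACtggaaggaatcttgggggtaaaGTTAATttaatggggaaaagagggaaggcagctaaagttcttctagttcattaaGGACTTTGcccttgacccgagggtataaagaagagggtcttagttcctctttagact
Slc3a1: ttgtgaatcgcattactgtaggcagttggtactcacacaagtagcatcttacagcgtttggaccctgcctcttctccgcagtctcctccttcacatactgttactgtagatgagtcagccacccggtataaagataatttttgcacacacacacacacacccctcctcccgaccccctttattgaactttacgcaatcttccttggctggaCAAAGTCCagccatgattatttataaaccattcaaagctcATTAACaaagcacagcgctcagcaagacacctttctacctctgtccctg
Slc22a6: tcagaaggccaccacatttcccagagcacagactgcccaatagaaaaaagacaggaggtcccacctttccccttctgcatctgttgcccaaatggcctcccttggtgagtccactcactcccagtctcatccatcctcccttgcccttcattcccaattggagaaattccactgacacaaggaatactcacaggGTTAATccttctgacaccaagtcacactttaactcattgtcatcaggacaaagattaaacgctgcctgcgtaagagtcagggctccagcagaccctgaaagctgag
Miox: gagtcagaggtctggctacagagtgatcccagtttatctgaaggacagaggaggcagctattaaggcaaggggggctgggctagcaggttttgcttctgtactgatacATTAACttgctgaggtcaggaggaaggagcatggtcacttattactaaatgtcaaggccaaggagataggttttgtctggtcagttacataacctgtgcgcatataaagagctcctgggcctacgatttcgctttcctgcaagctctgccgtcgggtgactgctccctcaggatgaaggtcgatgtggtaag

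Of these 4 genes, Slc3a1, the heavy subunit of the cystine carrier, had 221, 77.7 and 52.1 CPM. Slc22a6, the organic anion transporter of the basolateral side, had 324, 122 and 90.4 CPM, and Miox, which oxidizes inositol, had 76.9, 36.8 and 35.2 CPM. Library 30 was the highest in each of them by more than the distance between libraries 37 and 55.

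In the loop of Henle list, which had 14 genes detected of 14, library 30 was the highest in 8, library 37 in 2 and library 55 in 4. Umod, the urinary protein of the thick ascending limb, had 347, 289.9 and 359.6 TPM, and Slc12a1, the sodium, potassium and chloride cotransporter of that limb, had 415, 292 and 283 TPM. Umod was highest in library 55 and Slc12a1 in library 30. Tmem72, a membrane protein, was the widest, with 42.2, 20.8 and 19.1 CPM. Egf, whose product is made by mature distal segments, was the lowest detected, with 1.59, 1.67 and 1.64 TPM. In the distal and connecting tubule, library 30 was the highest in 8 of 10 genes. Slc12a3, the thiazide sensitive cotransporter, had 30.5, 12.9 and 14.2 TPM, Trpv5, a calcium channel, had 11.4, 5.10 and 6.32 CPM, and Calb1, a calcium binding protein, had 217, 155 and 159.6 CPM. Klk1, a kallikrein, was highest in library 55, with 157, 165 and 261 TPM. With library 30 left out, library 37 was above library 55 in 3 of the 10 genes, against 51.8% of all genes compared.

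Collecting duct genes were led by Aqp2, the water channel under control of vasopressin, with 450.2, 499 and 662 TPM. The simple keratins Krt8 and Krt18 followed, with means of 439 and 338 TPM, and are shared with other epithelia. Scnn1a, Scnn1b and Scnn1g, the subunits of the epithelial sodium channel, had means of 47.0, 112 and 73.6 TPM. All 16 genes of the list were above 10 CPM, and library 55 was the highest in 8 of them. Tfcp2l1, a transcription factor of the collecting duct, was the widest and was highest in library 30, with 552, 337 and 367 CPM. Among 13 intercalated cell genes the ammonia channel Rhcg had 125, 112 and 126 TPM and Foxi1, the factor that specifies these cells, had 41.9, 40.7 and 49.2 TPM. Library 37 was the lowest in 11 of the 13, against 23.9% of all detected genes. Slc26a4, the pendrin anion exchanger, had 6.28, 2.57 and 3.87 CPM. The uroplakins of the urothelium were present at lower levels, with 52.2, 80.1 and 66.8 TPM for Upk3a.

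Stromal genes were abundant, and all 15 exceeded 10 CPM. Penk, the enkephalin precursor, had 513, 701 and 727 TPM. Aldh1a2, which makes retinoic acid, had 378, 453 and 457 TPM, and Tcf21, a transcription factor of stroma and podocytes, had 280.0, 350.1 and 348 TPM. Library 30 was the lowest in these genes and in 11 of the 15. Foxd1, the factor of cortical stromal progenitors, had 14.7, 17.3 and 18.3 TPM, and Lef1, a mediator of Wnt signalling, was the lowest of the list and the widest, with 13.7, 18.8 and 19.6 CPM. In mural cells Ren1, the renin gene, had 797, 717 and 638 TPM and Acta2, smooth muscle actin, had 559, 643 and 534 TPM. Endothelial genes were led by Plvap, the protein of fenestral diaphragms, with 271, 323 and 299 TPM, and Cldn5, a tight junction protein, with 189, 241 and 254 TPM. Library 37 was the highest in 12 of the 16 endothelial genes, against 27.9% of all detected genes, and library 30 was the lowest in 11. The median ratio of this list was 1.15, no wider than that of all genes with a mean of at least 10 CPM.

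Matrix genes were among the most abundant of the kidney. Sparc, a collagen binding glycoprotein, had 1059, 1156 and 1106 TPM. The fibrillar collagens Col3a1, Col1a1 and Col1a2 had means of 551, 442 and 329 TPM. Lum, a small proteoglycan, was the lowest of the 20 interstitial genes, with 24.2, 21.2 and 17.6 TPM. Libraries differed little, with a summed level of 3863, 4020 and 3883 TPM and a median ratio of 1.13. Fbn2, the fibrillin of developing tissue, was the widest, with 154, 192 and 236 CPM, and was lowest in library 30. In the basement membrane Col4a1 and Col4a2 had means of 1136 and 619 TPM, followed by Col18a1 and the laminin chain Lamc1. Lama1 and Lama5, alpha chains of laminin, had similar levels, with means of 84.6 and 77.0 TPM. Npnt, an integrin ligand of epithelial basement membranes, was the widest, with 763, 443 and 402 CPM. It was highest in library 30, and the other libraries lay closer to each other than to it.

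Hox genes encode homeodomain transcription factors that give position along the body axis, and their clusters are divided into paralog groups numbered from the anterior end. Of the 39 genes 32 were detected, 21 of them at 10 CPM or more. Hoxa10 was the highest, with 134, 163 and 176 TPM, or 158 ± 21.5 TPM (n = 3). Hoxd9 had 118, 136 and 146 TPM, Hoxb8 had 97.3, 106 and 126 TPM, and Hoxd8 had 110.2, 102 and 112 TPM. Hoxa11, of the group that is required for kidney formation, had 67.5, 80.7 and 91.3 TPM, against 26.9, 30.9 and 33.8 TPM for Hoxd11 and 2.70, 2.76 and 3.17 TPM for Hoxc11. Differences between these 3 paralogs rest on the exon lengths used as well as on the counts, and were not tested.

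**Figure D3:**
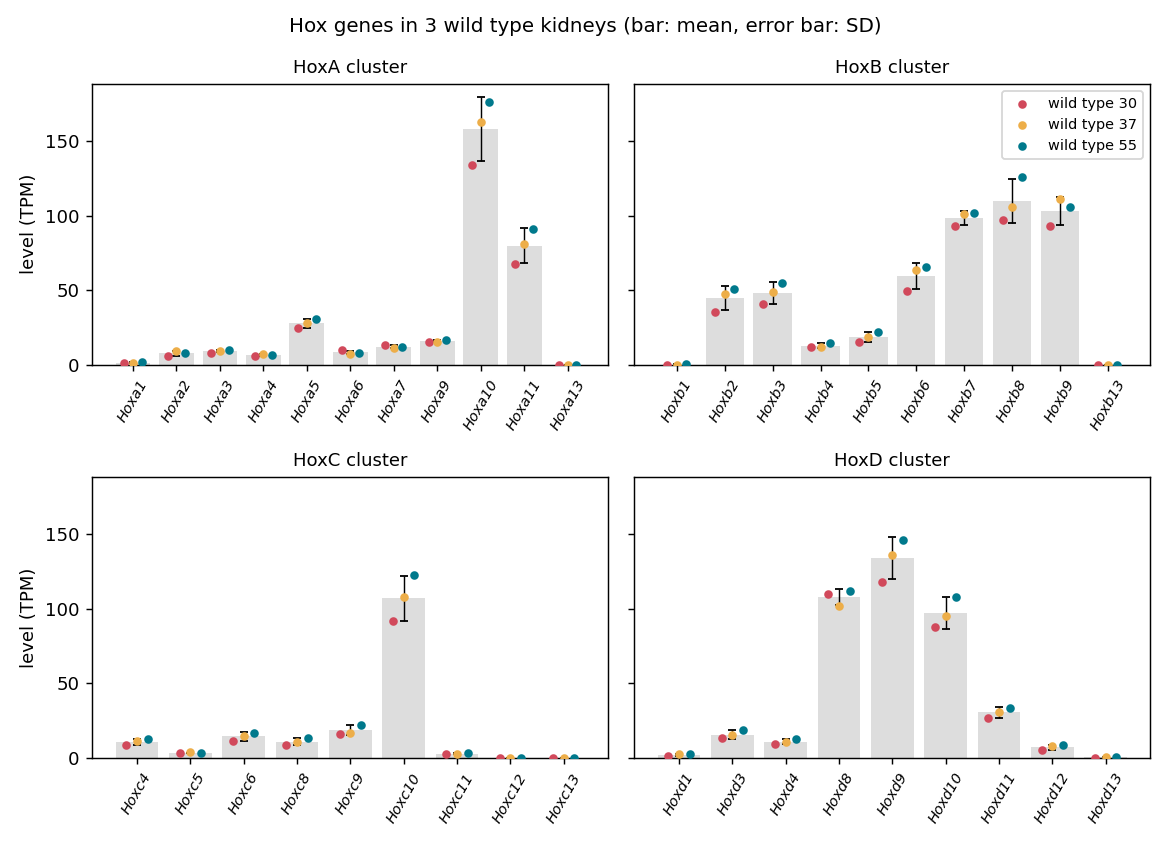
TPM of the 39 Hox genes by cluster and position, with points for the 3 libraries, bars for their mean and error bars for 1 SD (n = 3). Levels are highest in groups 8 to 10, with Hoxa10 at 158 TPM on average, and close to 0 in group 13.

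By paralog group, the summed level was highest in group 10, at 313, 366 and 407 TPM. Groups 9 and 8 followed, with 243, 279 and 291 TPM and 216, 219 and 251 TPM. The HoxC members of group 9 and group 10 differed from each other, since Hoxc10 had a mean of 107 TPM and Hoxc9 of 18.6 TPM. Group 11 had 97.1, 114 and 128 TPM, group 12 had 5.30, 7.79 and 8.40 TPM, and the 4 genes of group 13 together had 0.224, 0.456 and 0.636 TPM. Hoxa13 and Hoxc12 had no count in any library. The group 13 sums rest on few counts, most of them of Hoxd13, which had 6, 13 and 16 counts. Hoxb13 had at most 2 counts in any library and Hoxc13 at most 1. By cluster, the HoxB genes summed to 436, 508 and 541 TPM, HoxD to 372, 401 and 444, HoxA to 285, 333 and 360.3, and HoxC to 143, 168 and 194 TPM.

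Of the 32 detected Hox genes, 26 were highest in library 55, against 33.5% of all detected genes, and 29 were lowest in library 30. The median ratio of these genes was 1.30, against 1.18 for all detected genes, and none was as high as 2. The widest of those at 10 CPM or more was Hoxc6, with 8.04, 10.6 and 11.9 CPM. Hoxa6 and Hoxa7 were the only detected Hox genes that were highest in library 30. When library 30 was left out, library 37 was above library 55 in 4 of the 32, against 51.8% of all genes compared.

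**Figure D4:**
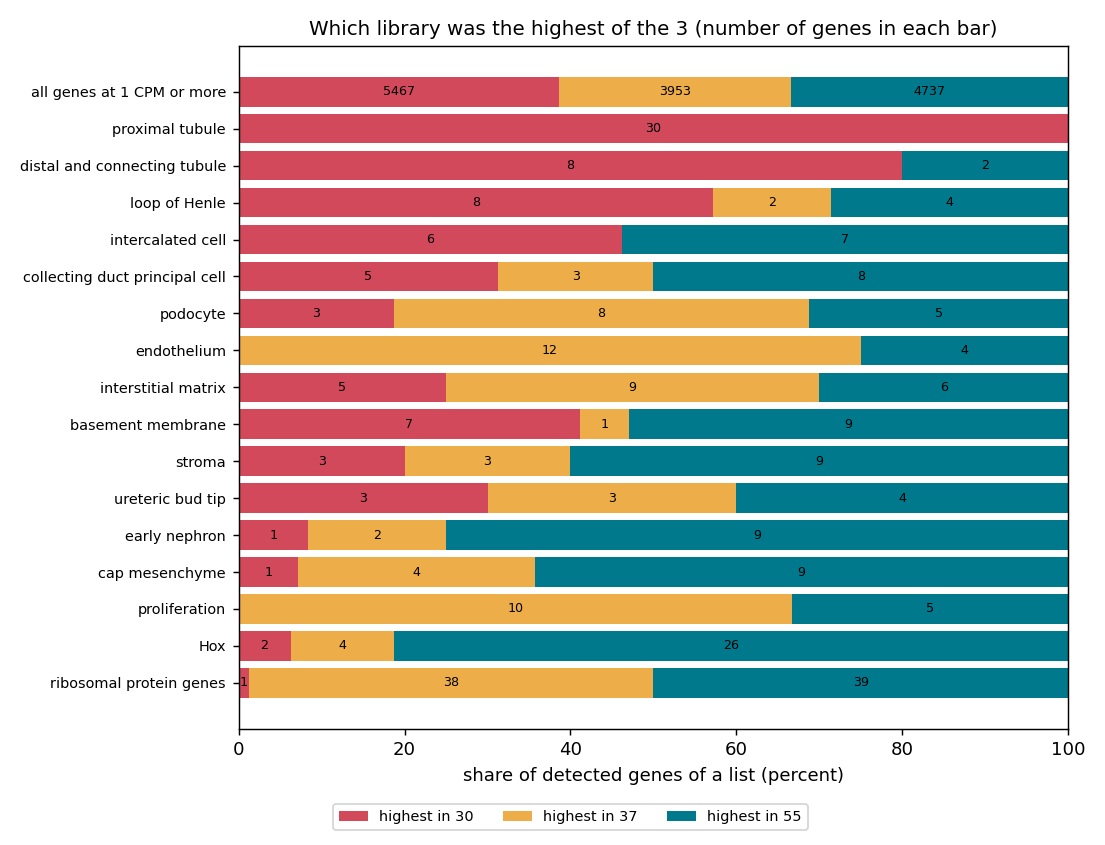
Share of the detected genes of each list, in percent, whose highest value lies in library 30, 37 or 55, with the number of genes in each bar. All 30 proximal tubule genes are highest in library 30, and 26 of 32 Hox genes are highest in library 55, beside 38.6% and 33.5% over all genes at 1 CPM or more.

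The lists that were high and low in library 30 thus differed. The proximal, loop and distal tubule lists were highest there in most of their genes, though for the loop this was 8 of 14. Summed levels of the loop and distal lists were highest in library 30, but their medians were not. The loop median was 52.0, 54.9 and 51.9 TPM, and the distal median was 33.4, 33.5 and 35.1 TPM. Cap mesenchyme, early nephron, stroma, proliferation, Hox and ribosomal protein genes were lowest in library 30 in most of each list. Most blood transcripts were also lowest in library 30. The summed level of the erythroid list was 2330, 5640 and 5932 TPM, and haemoglobin took 0.0525%, 0.128% and 0.136% of the counts. Hbb-bs, an adult beta globin, was the most abundant, with 1301, 2820 and 2989 TPM, and Hba-a1, an alpha globin, had 992, 2720 and 2845 TPM. Alas2, the erythroid enzyme of haem synthesis, had 21.5, 47.4 and 40.6 CPM. Of 14 erythroid genes 10 were found in the counts and 5 were detected, of which 4 were lowest in library 30. The widest of these was Hba-a2, an alpha globin of low abundance, with 0.379, 5.17 and 7.23 CPM. Epb4.2, a protein of the red cell membrane, was highest in library 30, with 2.35, 1.09 and 0.859 CPM. Globin levels are uncertain for the same reason as those of ribosomal protein genes, and 3 beta globin symbols were not found. The part of blood, and of the age or handling of the kidneys, in these differences was not tested.

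Of the 8 detected water channels, library 30 was the highest in 4, against 38.6% of all detected genes, and library 55 in 4, against 33.5%. Aqp1, of the proximal tubule and thin limb, had 407, 291 and 241 TPM and was highest in library 30, whereas Aqp2 and Aqp3, of the collecting duct, were highest in library 55. Aqp4, also of the collecting duct, was highest in library 30, with 46.8, 43.6 and 43.2 CPM. Of 11 aquaporins 8 were detected, and Aqp12 had no count. Of 372 genes with the solute carrier prefix 297 were detected. Their summed level was 15695, 12446 and 11555 TPM, and 198 of them were highest in library 30. The most abundant were the mitochondrial carriers Slc25a5 and Slc25a4, which exchange ADP and ATP, with means of 1595 and 796 TPM. Their values differed little between libraries, with ratios of 1.16 and 1.06.

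Most lists of other tissues had few detected genes, with macrophages as an exception. In the macrophage list all 12 genes were detected, and its summed level was nearly the same in the 3 libraries, at 190.3, 192 and 191 TPM. C1qa, a complement subunit, had the highest mean, with 32.5, 37.3 and 31.5 TPM. Of 7 lymphoid genes only Cd79b was detected, and Cd3g, a chain of the T cell receptor complex, was at 0. The lymphoid list summed to 15.6, 18.2 and 19.3 TPM. In adrenal cortex 2 of 8 genes were detected, led by Star, the cholesterol transfer protein, and the sum was 6.03, 7.15 and 6.27 TPM. Cyp11b2, the aldosterone synthase, was at 0. In adrenal medulla only Pnmt was detected of 7 genes, and the sum was 4.47, 6.53 and 5.35 TPM. In the gonad list only Inha was detected of 6, with Foxl2 at 0 and a sum of 4.55, 8.61 and 9.03 TPM.

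Of the liver list 5 of 9 genes were detected, with a sum of 93.3, 106 and 67.1 TPM, most of it Afp, the fetal serum protein, at 78.5, 89.6 and 44.3 TPM. Alb, serum albumin, had 1.62, 1.00 and 1.29 TPM. Fgb, a fibrinogen chain, had 0.108, 0.0945 and 3.13 CPM and was high in library 55 only. In skeletal muscle 3 of 8 genes were detected, led on average by Actn3, and the sum was 13.4, 14.5 and 24.9 TPM, highest in library 55. In nerve and Schwann cells 3 of 6 were detected, led by Elavl4, with a sum of 8.45, 8.80 and 9.55 TPM. In the adipose list only Fabp4 was detected of 5, at 199, 229 and 236 TPM, and the sum was 199, 229.6 and 236 TPM. Fabp4 is also present in endothelium, and Ucp1, the uncoupling protein of brown fat, was at 0. The part of these cells in the results above was not tested.

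Genes that respond within minutes to dissection were at low to moderate levels. Of 12 immediate early genes 10 were detected. The median over all 12 was 15.4 TPM, and the sum was 299, 312 and 347 TPM. Fos, a subunit of the AP-1 factor, had 3.47, 2.72 and 5.30 TPM and Jun, its partner, had 81.0, 76.1 and 95.7 TPM. Of 10 hypoxia response genes 9 were detected. Ndrg1, a stress response gene, was the widest of them and was highest in library 30, with 629, 362 and 313 CPM, while Slc2a1, the glucose transporter, had 167, 199 and 169 CPM. Car9, a carbonic anhydrase induced by low oxygen, had 0.866, 0.614 and 0.758 CPM.

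Across all genes the libraries were close to each other. The biological coefficient of variation, the spread between libraries beyond counting error, was 0.147 in common for all genes and 0.125 for the median gene. Without library 30 these values were 0.0830 and 0.0754. Over genes with a mean of at least 10 CPM, the ratio of the highest to the lowest library had a median of 1.15 and was below 1.1 for 3226 of them. It was at least 2 for 230 genes and at least 3 for 65. Of the 230, 208 were highest in library 30, 17 in library 55 and 5 in library 37, and 190 were lowest in library 55. Because the mean includes the highest library, some of the 230 reached 10 CPM through that library alone. Without library 30, 17 genes had a ratio of at least 2, and without library 55 there were 139.

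**Figure D5:**
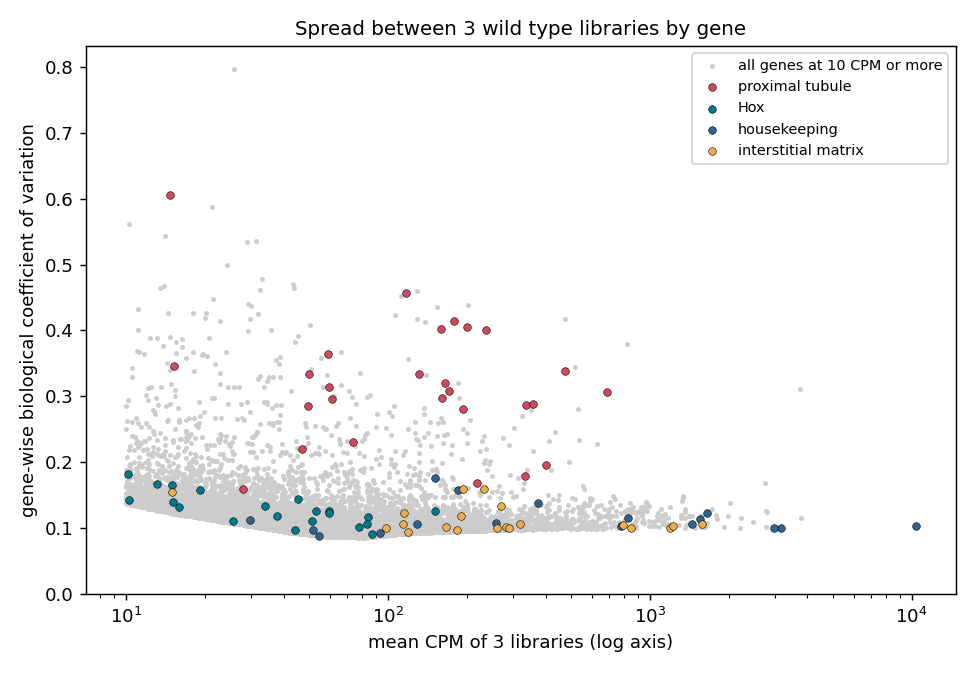
Biological coefficient of variation of each gene against its mean CPM on a log axis, for genes at 10 CPM or more. Proximal tubule genes lie above most other genes, while Hox, housekeeping and interstitial matrix genes all lie below 0.2.

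The gene with the largest coefficient was Rdh19, a retinol dehydrogenase family member, at 0.796, with 65.2, 7.56 and 4.88 CPM. Next were Slc5a2 and the Riken transcript 5830417I10Rik, which had 30.8, 29.3 and 3.97 CPM and was low in library 55 only. G6pc, the phosphatase that releases glucose, had 21.5, 5.50 and 3.79 CPM. Lrrc19, Slc13a3, Fmo2, Dpep1 and Slc5a10 were also among the first 10, and each was highest in library 30 with a ratio of at least 4. Of the 100 genes with the widest ratio, 95 were highest in library 30, 14 were in the proximal tubule list and 28 were solute carriers. Of all 10759 genes ranked, 27 were in that list and 219 were solute carriers. Both groups share genes such as Slc5a2. Some of the widest genes, such as Rdh19 and G6pc, reached a mean of 10 CPM through library 30 alone. The counts by highest library are thus in part set by that filter. The 10 narrowest coefficients lay between 0.0856 and 0.0860. They belonged to Crim1, Usp25, Tlk2, Tfam, Zfp532, Cspg4, Casd1, Dennd6a, Actr10 and Zbtb41, with ratios from 1.01 to 1.03. Tfam, the factor that packs mitochondrial DNA, had 77.1, 76.7 and 76.5 CPM. These coefficients are drawn toward a trend shared by genes of like abundance, whereas the ratios are not.

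Some genes set a single library apart from both others. Besides the globins and Alas2, B4galnt1, an enzyme of ganglioside synthesis, was low in library 30, with 6.57, 14.3 and 15.4 CPM. In library 37 Col26a1, a collagen, was high, with 78.1, 148 and 95.5 CPM, and Cox7b, a subunit of cytochrome c oxidase, was low, with 360.1, 181 and 369 CPM. In library 55 Rab3b, a vesicle GTPase, was high, with 6.74, 10.0 and 22.4 CPM. Mpp7, a scaffold of cell junctions, was low there, with 23.1, 27.1 and 8.57 CPM.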

How the data were processed

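The deposited expected counts were made by the authors with Strand NGS from paired-end reads aligned to mouse build mm10, after removal of reads of low quality and reads at more than 1 position. The deposited log2 values had been normalized between the 12 libraries and centred per gene on the median by the authors, and served only as an alternative for the ratios between libraries. Of the counts above 0, 82.6% were not whole, and they were rounded. The 9 sample columns of mutant kidneys in each file were not used. The strandedness of the libraries is not given in the sources used here.

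Libraries were scaled by TMM in edgeR 4.0.16, with R 4.3.3 and Python 3.11.15. Figures were drawn with matplotlib 3.10.9. TPM are the scaled counts per exon length times a constant that brings the mean of the library sums to 10 to the power 6, so the sums of single libraries may differ. They used the exon length of GENCODE M21, the union over all transcripts of a gene, which was matched for 32111 of 36186 entries, 21685 by Entrez number and 10426 by symbol. Entries without a length held 0.165%, 0.172% and 0.175% of the counts. The coefficient of variation was estimated in edgeR with no group term on 15248 genes that passed its filter of 10 counts, and in DESeq2 1.42.0 as an alternative. Ratios of the highest to the lowest library used a floor of 3 counts, which covers counting error only. No test was run, since a single group was described. The code was tested on simulated data.

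The 31 gene lists held 405 entries, of which 401 were found, 2 by Entrez number. Hbb-b1, Hbb-b2, Hbb-bt and Ahsp were not found. The members and lists were chosen with earlier results of these data known. Genes were named by rule: in each list those with the highest level, the lowest detected and the widest ratio at 10 CPM or more, over all genes the most abundant, the widest and the narrowest, and for each library those farthest from the others. Further members of the lists were named for their roles, and Ddx3y, Xist and Tfam were singled out, after values were seen. Some genes that the rule names are not reported here. Alternatives were other scalings, thresholds and lengths, unrounded counts, removal of haemoglobin genes and removal of each library in turn.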

Additional observations from a re-analysis of the deposited data

How the results depend on the processing

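Of 283 values recomputed under alternatives, 255 stayed within a limit and 28 moved further. For list medians the limit was the SD of the 3 library medians. For coefficients of variation it was the SD over the removals of each library, and for counts of genes 1.5 times. Library 30 widened the limit of the proximal tubule to 61.5 TPM. Its move from 137 to 93.3 TPM without that library therefore stayed within it. Both other scalings stayed within these limits, with small changes: genes with a ratio of at least 2 numbered 238 and 223, and Hox genes lowest in library 30 numbered 27 and 29. TMM factors lay between 0.994 and 1.01, so the choice of scaling had little room to change values. With the longest transcript in place of the union of exons, 18 of 31 list medians moved, since the lengths change: basement membrane stood at 141 TPM, collecting duct at 63.4, endothelium at 73.8, housekeeping at 383, interstitial matrix at 74.8, loop of Henle at 43.2, podocyte at 51.9 and stroma at 74.1 TPM. With each library left out in turn, the common coefficient of variation ranged from 0.0830 to 0.182, the median coefficient from 0.0754 to 0.162, and the genes with a ratio of at least 2 from 17 to 233. The lowest of each was without library 30, which left the pair with the smallest squared difference, at 2.63. The highest was without library 37, which left the pair with the largest, at 8.21. Why the libraries differ was not tested. Of Hox genes at 10 CPM or more, 19 were lowest in library 30, since fewer genes were counted. Genes at the threshold in all libraries ranged from 13804 to 14601, and the count by mean was not rerun. The order of the libraries was not run without the library it concerns, nor the erythroid median without haemoglobin. No entry had a mitochondrial prefix. Depth limits what can be said of genes below 0.0812 CPM, where a library holds fewer than 3 counts. No paired analysis was possible because a single group was described.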

Other observations

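Some imprinted genes had abundant transcripts. This family and the 2 below were chosen after their values were seen. Of 20 imprinted genes 19 were detected. The median of these 19 was 63.2 TPM, against 23.8 TPM for all detected genes. H19 stood highest, at 3752, 4022 and 3870 TPM. Mest, a hydrolase expressed from the paternal allele, had 1023, 1279 and 1253 TPM, and the growth factor gene Igf2 had 881, 921 and 867 TPM. Igf2 and H19 differed little between libraries, with ratios of 1.06 and 1.07, while Mest was lowest in library 30. Zim1, a zinc finger gene, was highest in library 30, with 14.8, 11.1 and 9.98 CPM. Library 37 was the highest in 11 of the 19 detected genes.

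Of 94 genes of oxidative phosphorylation 89 were detected, and the median of these was 263 TPM. Their summed level was 33634, 33476 and 32840 TPM. Library 37 was the highest in 46 of the 89 detected genes, library 30 in 25 and library 55 in 18. The lowest value lay in library 30 for 44 and in library 55 for 40, against 42.9% and 33.2% of all detected genes. Without library 30, library 37 was above library 55 in 70 of the 89, against 51.8% of all genes compared. Atp5a1 and Atp5b, subunits of the ATP synthase, were among those highest in library 30, with 2194, 1905 and 1768 TPM and 1942, 1553 and 1436 TPM. Cox6b1, a subunit of cytochrome c oxidase, had 1079, 1094 and 1070 TPM, and a ratio of 1.02. Of 50 proteasome genes 47 were detected, with a median of 130.5 TPM over these, and Psmb5, a catalytic subunit, was the highest at 429, 476 and 467 TPM. Library 37 was the highest in 28 of these 47 genes, and the median ratio of both families was 1.11.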
